A study of Mus musculus with 26 samples.

Results

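The proteins of the cytosolic ribosome are encoded by a large set of housekeeping genes, and 82 of these genes were followed here through the fully grown, germinal vesicle (GV) stage oocytes of 6 mouse genotypes. They were chosen by a rule on the gene symbol that uses no measured value, with earlier results of these data known. Taken were all rows with the symbol Rpl or Rps followed by a number and an optional letter, together with Rplp0, Rplp1, Rplp2 and Rpsa. Left out were Rpl37rt, Rpl10l, rows marked as pseudogenes and the S6 kinases. The rule gave 50 genes of the large and 32 of the small subunit out of 24450 genes and other features in the table. Rps3a1, whose symbol ends in a second number, and ribosomal proteins with other names, such as Fau and Rack1, fell outside it. Enough reads for a test were found for 77 of the 82, and the other 5, Rpl26, Rpl30, Rpl32l, Rpl3l and Rps27, are described by their counts only.

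Each library was made from polyadenylated RNA of 10 pooled oocytes, and the labels call the pools biological replicates without naming the mice or their age. The WT group (6 libraries) carried a floxed Tet3 low-complexity domain (LCD) and no Cre, so that controls share the floxed allele with the LCD KO group (7 libraries), in which Zp3-Cre, expressed in growing oocytes, was added. The HD mutant group (5) carried a floxed allele labelled Tet3 LCD HD Mut with Zp3-Cre (HD is not defined in the sources used here), Dnmt3a KO (2) a floxed Dnmt3a with Zp3-Cre, and DKO (2) floxed Dnmt3a and floxed Tet3 LCD with Zp3-Cre. A further 2 libraries were labelled Tet3 KO (floxed Tet3, Zp3-Cre), and 2 labelled TKO (floxed Tet1, Tet2 and Tet3, Zp3-Cre) held values identical to those, so that 24 distinct libraries were analysed. No group held WT oocytes with Cre. The labels give 3 batches. Batch 1 held 3 WT and 3 LCD KO libraries (each numbered from 1), batch 2 held WT 4 together with 2 LCD KO (numbers 4 and 5) and 3 HD mutant libraries (numbers 1 to 3), and batch 3 held the last 2 WT and the last 2 LCD KO libraries together with all of Dnmt3a KO, DKO and the libraries labelled Tet3 KO. No batch is stated for HD mutant 4 and 5, which therefore entered no fit with a batch term. What a batch shared is not given, beyond the list of its libraries.

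Tet3, an enzyme that oxidizes methylated cytosine, and Dnmt3a, an enzyme that sets new methyl marks on DNA, were the targeted genes. In batch 3 Tet3 stood at 157 and 219 CPM (counts per 1000000, normalised for library composition) in WT, at 54.3 and 73.9 in LCD KO and at 65.7 and 57.1 in DKO. The libraries labelled Tet3 KO had 262 and 357 CPM of Tet3 and 143 and 105 CPM of Dnmt3a, whereas WT of the same batch had 310 and 347 CPM of Dnmt3a and Dnmt3a KO 132 and 107. Both had more Tet3 and less Dnmt3a than either WT library of the batch, which goes against their label. Total counts ranged from 1838824 to 7833087 per library. The 14 oocyte markers were detected in all 24 libraries and summed to 20683 to 65046 CPM, granulosa and cumulus markers to 62.5 to 351 CPM (the highest value in LCD KO 2), theca and stroma markers to at most 7.26 CPM and blood markers to at most 3.79 CPM, with all 4 haemoglobin genes at 0.

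A eukaryotic ribosome joins a small subunit, which binds the mRNA and decodes it, to a large subunit, which forms the peptide bonds and passes the new protein through an exit tunnel. Their proteins are needed in equal amounts, and each is made from 1 or a few expressed genes, beside which the mouse genome carries many processed pseudogenes. Messenger RNAs of ribosomal proteins typically begin with a C followed by a run of pyrimidines, the 5′ terminal oligopyrimidine (TOP) tract, through which mTOR signalling and the protein Larp1 control their translation. Growing oocytes build up a store of ribosomes and mRNA, and the full-grown GV oocyte has largely stopped transcription, so that its mRNA levels reflect what was stored and kept.

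The tract is shown for the members on which the comparisons turn, the 4 that were higher in LCD KO than in WT (Rpl23, Rps18, Rpl41 and Rps23) and the 2 that stood highest over batch 3 in batch 1 (Rpl5) and in batch 2 (Rps12). Each line gives the 30 bases before and the first 30 bases from the transcription start that RefSeq annotates on GRCm38.p6, on the strand of the gene. The windows are chr11:97782410-97782469 (minus strand) for Rpl23, chr17:33955636-33955695 (minus) for Rps18, chr10:128549139-128549198 (minus) for Rpl41, chr13:90923092-90923151 (plus) for Rps23, chr5:107900498-107900557 (plus) for Rpl5 and chr10:23787180-23787239 (minus) for Rps12. Capitals mark the longest run of C and T that starts with C, where it has at least 5 bases.
Rpl23: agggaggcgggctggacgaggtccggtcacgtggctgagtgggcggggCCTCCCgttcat
Rps18: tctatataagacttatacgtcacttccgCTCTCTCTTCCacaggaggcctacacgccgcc
Rpl41: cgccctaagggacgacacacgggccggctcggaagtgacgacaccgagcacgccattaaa
Rps23: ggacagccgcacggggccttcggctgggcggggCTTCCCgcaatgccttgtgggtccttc
Rpl5: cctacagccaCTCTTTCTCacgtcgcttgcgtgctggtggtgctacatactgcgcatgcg
Rps12: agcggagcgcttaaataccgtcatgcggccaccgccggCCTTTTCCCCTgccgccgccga
Rps18 had a run of 11 bases that spans the annotated start, Rps12 a run of 11 bases that began 8 bases after the first, Rpl5 a run of 9 bases upstream of it, and Rpl23 and Rps23 had runs of 6 bases. Rpl41 had none of 5 bases.

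Of the 82 members, 61 matched the RefSeq table, with 73 start windows. A run of at least 8 bases lay anywhere in the window in 36 of the 73 (49.3%), against 18.2% of 32851 windows of all genes, searched on the gene's strand only. A run of at least 5 bases began exactly at the annotated start in 14 of 73 (19.2%), against 2.51% of all windows. An annotated start can lie some bases from the start used in the oocyte, and a match is a description of these letters only.

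In WT oocytes the 82 genes took 1.67% ± 0.41 of all counts (SD, n = 6). The plot of the summed share shows it for every library. The lowest WT share was 1.31%, the median 1.54% and the highest 2.46%, the last in WT 4, the only WT library of batch 2. The LCD KO libraries lay between 1.54% and 2.18% (median 1.82%), HD mutant had 2.21%, 2.28% and 2.44% in batch 2 and 2.12% and 2.01% where no batch is stated, Dnmt3a KO had 1.65% and 1.21%, DKO 1.29% and 1.56%, and the libraries labelled Tet3 KO 1.28% and 1.27%. The shares followed the batches, with batch 1 between 1.54% and 1.92%, batch 2 between 2.09% and 2.46% and batch 3 between 1.21% and 1.65%. Batch 2 overlapped with neither of the others, and within batch 1 and within batch 3 every LCD KO library lay above every WT library, whereas in batch 2 both LCD KO libraries (2.09% and 2.18%) lay below WT 4. Taken of the composition-normalised library size instead, batch 1 lay between 2.08% and 2.62%, batch 2 between 1.79% and 2.38% and batch 3 between 1.07% and 1.56%, so that batch 3 was again low while batches 1 and 2 overlapped. With this scaling too LCD KO lay above WT in batch 1 and below WT 4 in batch 2, and in batch 3 it overlapped with WT.

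**Figure D1:**
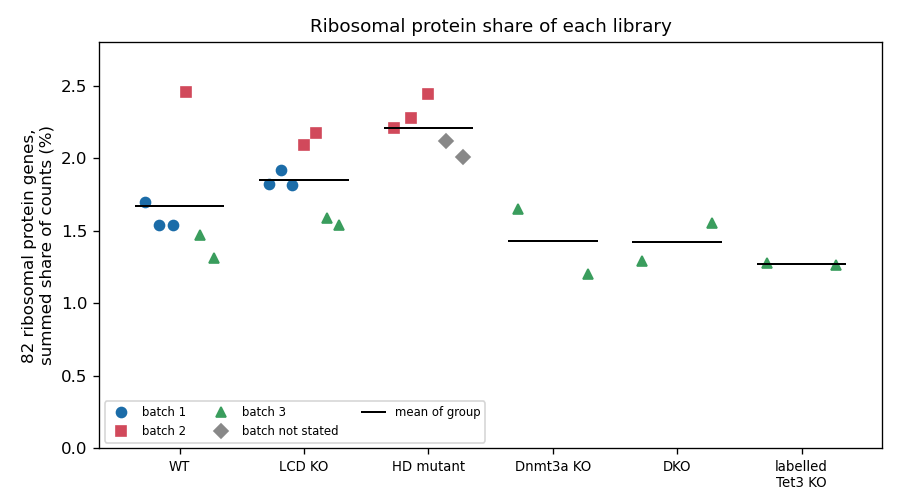
Share of all counts (%) on the 82 ribosomal protein genes in each of 24 libraries, by group, with the colour and shape giving the batch and the line the group mean. The 6 libraries of batch 2 lie highest, between 2.09% and 2.46%, and the 10 of batch 3 between 1.21% and 1.65%.

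Levels of different members were compared as CPM per kb of coding length in WT, which 80 members allowed. They covered more than 3 orders of magnitude: 13 members exceeded 1000 CPM per kb, 53 lay between 100 and 1000, 9 between 10 and 100 and 5 below 10, with medians of 314 for the large and 343 for the small subunit. Rpl5, which binds 5S rRNA and, when free of the ribosome, inhibits the p53 ligase Mdm2, was the highest at 2765 CPM per kb. It was followed by Rpl39, which lines the exit tunnel (1991), Rpl35 at the tunnel's mouth (1883), Rps27l, a close copy of Rps27 (1698), and Rps29, a zinc-binding protein of the small subunit's head (1570). WT levels pooled 3 batches, and Rpl5 ranged from 1215 to 4331 CPM per kb over the WT libraries. It ranked first in 5 of 6, while in WT 4 it ranked 9 (1608 CPM per kb) and Rpl39 first (2961). Per kb of the whole transcript Rpl5 was again first, but Rpl39 ranked 16 and Rps29 ranked 9. Rpl11, the partner of Rpl5 in the 5S particle, had 463 CPM per kb.

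At the other end, Rpl34 had 6.5 CPM per kb, Rpl30, which binds its own pre-mRNA in yeast, 1.81, and Rps27 0.62, while Rpl26 and Rpl3l had no count in WT. Over all 24 libraries Rpl34 had 1 to 34 counts, Rpl30 1 to 7, Rps27 0 to 4 and Rpl26 0 to 1, so that these core proteins were listed near or at 0 in a cell that holds ribosomes. A transcript's resemblance to other loci was measured as the share of its 100-base stretches that also occur in another annotated gene. It was 98.4% for Rps27, 53.5% for Rpl30, 36.8% for Rpl26 and 22.5% for Rpl34. Rpl10, at 91.6%, had 314 CPM per kb and Rpl5, at 91.1%, the highest level of all. Over 80 members the rank correlation of the share with the level was -0.11 (Spearman, across genes, which share the libraries). How the authors' counting treated reads with several alignments is not given, and its part in the low values was not tested. Rpl5 also overlaps an exon of Fam69a on the opposite strand, and so do Rpl35 with Wdr38 and Rpl30 with D730044K07Rik, whose reads cannot be told apart without the strand setting.

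**Figure D2:**
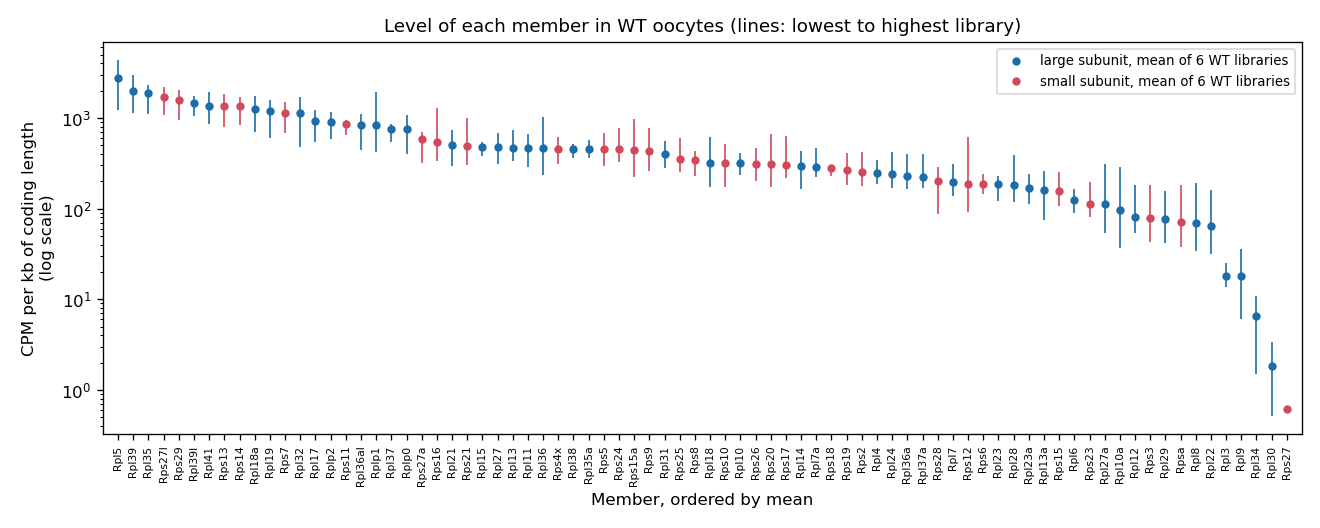
Level of each member in WT (CPM per kb of coding length, log axis), with points for the mean of 6 libraries, lines from the lowest to the highest library and colours for the subunit. Rpl5 leads at 2765 and most members lie between 100 and 1000. The 2 members at 0 (Rpl26 and Rpl3l) and 2 without a reference transcript are not drawn, and Rps27 has no line because its lowest value is 0.

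Several members have a second gene for nearly the same protein. Rps27l exceeded Rps27 in all 24 libraries, with 475 ± 203 CPM against 0.14 ± 0.24 (SD, n = 24). Rpl36al, a copy that arose by retroposition from the X-linked Rpl36a, exceeded it in all 24 libraries by 2.34 to 7.16 times, with the same coding length. Batch 1 had ratios of 4.0 to 7.16, batch 2 of 2.34 to 2.73 and batch 3 of 2.56 to 3.96. Rpl39l, known for its expression in male germ cells, reached 238 ± 74.4 CPM against 317 ± 120 for the X-linked Rpl39 of the same coding length, a ratio of 0.53 to 1.29 with Rpl39l the higher in 3 of 24 libraries. Rpl3l, the copy of Rpl3 used in striated muscle, had 0 counts in all 24 libraries, while Rpl3 stood at 22.2 ± 5.61 CPM. Rps4l reached 94.5 ± 29.7 CPM and Rps4x 353 ± 79.5, with Rps4l below Rps4x in all 24. Outside the symbol rule, Rpl22l1 exceeded Rpl22 in all 24 libraries by 1.2 to 3.69 times in CPM, and Rpl7l1 stayed below Rpl7 in all 24 (both not scaled for length). Reads of such copies can be assigned to the wrong member where the sequences match. Rps27 shared 98.4% of its 100-base stretches with other genes, Rpl36a 83.6% and Rpl36al 59.0%, whereas Rps27l and Rpl39l shared none and Rpl39 1.75%. The part of read assignment in the excess of Rps27l over Rps27 was not tested.

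The first comparison asked what removing the Tet3 LCD does to these transcripts. In the fit over 22 libraries with terms for group and batch, 4 of 77 members were higher in LCD KO than in WT and 0 were lower at an adjusted p below 0.05 (edgeR's quasi-likelihood test), while 18.3% of 11794 genes were called, 8.89% as higher and 9.44% as lower. The share of members called was below that of all genes. All 4 rises were small, and the median over members was 0.09 on the log2 scale, against -0.02 over all genes. At an unadjusted p below 0.05 there were 12 members, beside 3753 of 11794 genes. DESeq2 called 4 higher and 2 lower. Without the batch term edgeR called 0 members. For DESeq2 and for fits without the batch term, here and below, the share over all genes is not given. Their counts therefore describe the fits only. The called members were Rps23, a decoding-centre protein of the small subunit, Rpl41, the smallest ribosomal protein, which bridges the subunits, Rps18 of the small subunit's head, and Rpl23, a large-subunit protein that can bind Mdm2.

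Rps23 stood at 40.8, 34.5 and 42.2 CPM in WT and at 57.3, 84.1 and 63.0 in LCD KO of batch 1. In batch 2 it had 84.6 CPM in WT 4 and 93.2 and 97.2 in LCD KO, and in batch 3 47.8 and 38.8 in WT and 53.7 and 46.2 in LCD KO. The groups were apart in batches 1 and 2 and overlapped in batch 3. The fitted change was 0.47 ± 0.14 (log2, SE; adjusted p = 0.0214 with edgeR).

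Rpl41 measured 232, 212 and 175 CPM in WT and 325, 348 and 306 in LCD KO of batch 1. In batch 2 it had 274 in WT 4 and 246 and 275 in LCD KO, and in batch 3 132 and 120 in WT and 165 and 196 in LCD KO. LCD KO lay above WT in batches 1 and 3 without overlap, and around the single WT library in batch 2. The fitted change was 0.45 ± 0.12 (edgeR adjusted p = 0.00970).

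Rps18 measured 128, 131 and 138 CPM in WT and 197, 299 and 211 in LCD KO of batch 1, with the highest value in LCD KO 2. In batch 2 it had 105 in WT 4 and 111 and 115 in LCD KO, and in batch 3 139 and 123 in WT and 141 and 134 in LCD KO. The groups were far apart in batch 1, close in batch 2 and overlapping in batch 3, and the fitted change was 0.44 ± 0.15 (edgeR adjusted p = 0.0393).

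Rpl23 measured 89.8, 83.2 and 84.3 CPM in WT and 105, 144 and 126 in LCD KO of batch 1. In batch 2 it had 51.3 in WT 4 and 54.1 and 61.5 in LCD KO, and in batch 3 95.5 and 71.8 in WT and 110 and 87.7 in LCD KO. LCD KO was above WT in batches 1 and 2 and overlapped with it in batch 3, with a fitted change of 0.37 ± 0.13 (edgeR adjusted p = 0.0458).

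**Figure D3:**
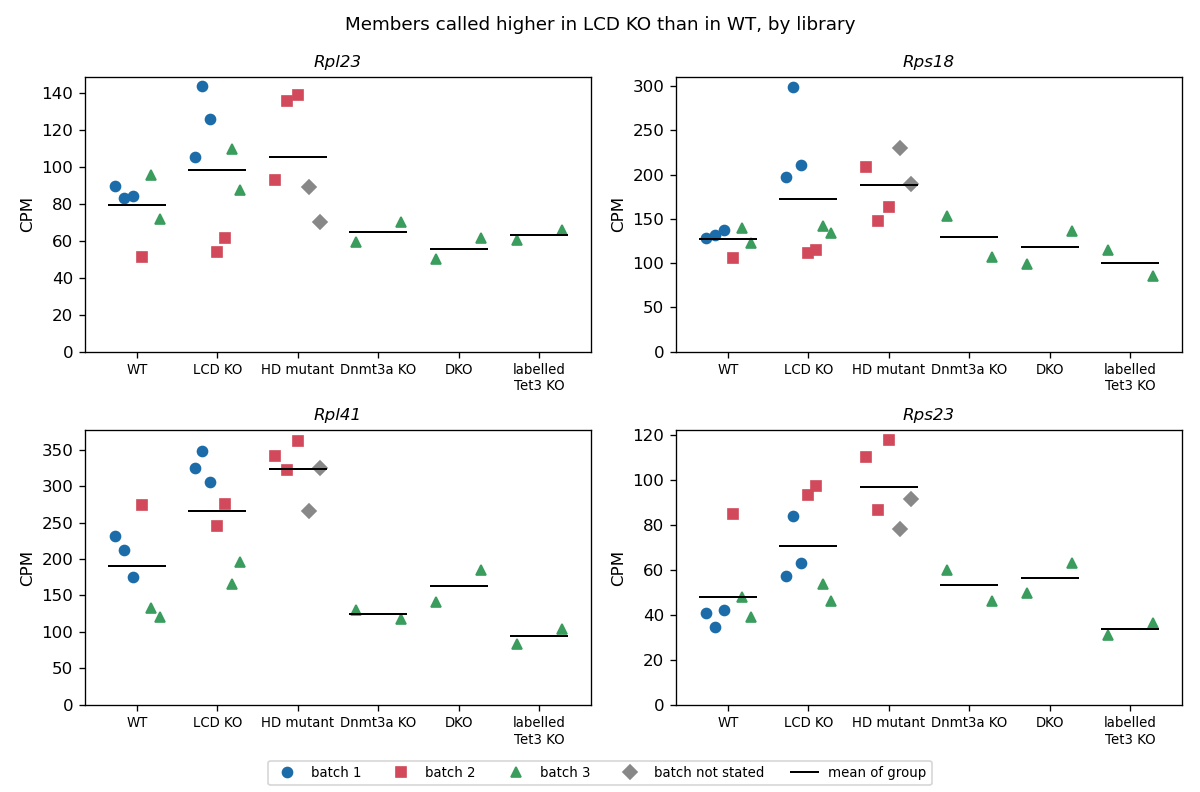
CPM of Rpl23, Rps18, Rpl41 and Rps23 in each of 24 libraries by group, with colour and shape for the batch and the line at the group mean. In batch 1 the 3 LCD KO libraries lie above the 3 WT libraries for all 4 genes, and HD mutant 2 and 3 have the highest Rpl23 of batch 2 (136 and 139 CPM).

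The calls depended on single libraries. Without WT 1, or without WT 2, only Rpl41 was called, beside 14.3% and 14.4% of all genes. Without WT 3 these were Rpl41 (higher) and Rpsa (-0.74 ± 0.25), beside 15.3% of genes. Without WT 6 they were Rpl41 and Rps23, beside 15.1%. Without LCD KO 2, the library with the most granulosa markers, they were Rpl41 (0.40 ± 0.12) and Rpl3 (-0.49 ± 0.15), beside 14.6%. Without WT 4 there were 8, all higher: the same 4 with Rps21 (0.56 ± 0.14), Rpl12 (0.50 ± 0.15), Rps27l (0.46 ± 0.16) and Rps25 (0.44 ± 0.13), while 16.9% of 11725 genes were called. Rpl41 was the member called in each of these 6 fits.

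Each batch was also fitted alone, with unequal numbers of libraries, so that the counts cannot be compared between batches. In batch 1 alone (3 against 3), 27 of 76 members were higher in LCD KO and 0 lower, with 30.3% of 9420 genes called and 15.8% called as higher, and the members' median was 0.24. They were led by Rps18 (0.86 ± 0.15), Rps23 (0.83 ± 0.17), Rpl35a (0.73 ± 0.16), Rps21 (0.71 ± 0.13) and Rpl41 (0.69 ± 0.13), and included Rplp2, 1 of the acidic stalk proteins (0.48 ± 0.12), and Rps27a, a fusion of ubiquitin with a ribosomal protein (0.40 ± 0.12). In batch 3 alone (2 against 2) 0 of 76 were called, with 0.789% of genes called and a median of 0.13. There 3 members and 1367 of 11160 genes had an unadjusted p below 0.05. In batch 2 alone (2 against WT 4) 0 of 78 were called (5 at an unadjusted p below 0.05), with 0.0946% of genes called (0.0394% higher, 0.0552% lower) and a median of -0.27.

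The difference between batch 1 and batch 3 in the LCD KO effect was tested over 13 WT and LCD KO libraries. It reached the threshold for 0 of 77 members and for 0.209% of 10045 genes, 0.0996% as larger in batch 1. An unadjusted p below 0.05 was found for 7 members and 1525 genes. Rps18 came nearest, with an effect larger in batch 1 by 0.75 ± 0.24 (edgeR adjusted p = 0.178). Every LCD KO library exceeded every WT library of its batch for 32 of 77 members in batch 1, against 19.1% of genes, and for 28 of 77 in batch 3, against 22.3%. Summed oocyte markers were lower in LCD KO than in WT in each batch. In batch 1 they covered 60172 to 65046 CPM in WT and 51775 to 54491 in LCD KO. Batch 2 had 49872.5 CPM in WT 4 and 33635 and 37431 in LCD KO. Batch 3 had 27186 and 24361 CPM in WT and 22826.5 and 20683 in LCD KO. In the fit over all batches 7 of 14 were called lower, where 9.44% of genes were. Of 6 granulosa and cumulus markers tested, Hsd3b1 was higher in LCD KO (0.99 ± 0.33), as was Dcn, the 1 tested marker of theca and stroma (2.08 ± 0.44), whose list summed to at most 7.26 CPM. The part of these markers in the members' values was not tested.

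Members with larger estimates that missed the threshold in the fit over all batches included Rpsa, the laminin receptor precursor of the small subunit, at -0.67 ± 0.24 (adjusted p = 0.0522), and Rpl3 near the peptidyl transferase centre at -0.41 ± 0.15 (adjusted p = 0.0610). The stalk proteins, which recruit the translation factors with GTPase activity, had values of 0.14 (Rplp0), -0.05 (Rplp1), 0.20 (Rplp2) and 0.30 (Rpl12). Rpl5 was at -0.24 ± 0.11 and Rpl11 at -0.02 ± 0.12. The X-linked members Rpl10, Rpl36a, Rpl39 and Rps4x lay between -0.05 and 0.09, and Rps6, the substrate of S6 kinase, was at 0.15 ± 0.13. None of these passed the test.

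The HD mutant libraries were compared with WT next. Of 77 members, 3 were higher and 0 lower, while 7.83% of all genes were called, 4.08% as higher and 3.75% as lower. The 3 were Rpl23, Rps18 and Rpl41. An unadjusted p below 0.05 was found for 10 members and 2923 of 11794 genes. Without the batch term 1 member was called against WT and 0 against LCD KO. Rpl23 had 93.2, 136 and 139 CPM in HD mutant of batch 2, all above WT 4 (51.3) and above the LCD KO libraries of that batch (54.1 and 61.5). HD mutant 4 and 5, without a stated batch, had 89.1 and 70.1 CPM and overlapped with WT of the other batches. The fitted change of Rpl23 was 1.39 ± 0.20 against WT (edgeR adjusted p = 8.32e-05) and 1.02 ± 0.19 against LCD KO (adjusted p = 0.00222). It was the only member called between HD mutant and LCD KO, where 2.08% of all genes were called (1.17% as higher). In that comparison 6 members and 1446 of 11794 genes had an unadjusted p below 0.05.

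Rps18 had 209, 147 and 163 CPM in HD mutant 1 to 3 and 230 and 189 in HD mutant 4 and 5, all above the highest WT library (139). Its change was 0.93 ± 0.23 (edgeR adjusted p = 0.0141). Rpl41 had 341, 323 and 363 CPM in HD mutant 1 to 3, above WT 4, and 265 and 325 in HD mutant 4 and 5, with a change of 0.65 ± 0.19 (adjusted p = 0.0315). The median over members was 0.03, against -0.02 over all genes.

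The group comparison of HD mutant with WT has 1 WT library within its batch and otherwise rests on LCD KO and WT linking the batches. In batch 2 alone Rpl23 was at 1.29 ± 0.31 (edgeR adjusted p = 0.153), and 0 of 78 members were called where 0.315% of genes were. Without HD mutant 1 only Rpl23 was called in the fit over all batches (1.55 ± 0.20), where 3.27% of genes were called. Without WT 4 there were 5, with Rpl39l (0.74 ± 0.21) and Rps25 (0.78 ± 0.22) beside the 3, where 5.19% of genes were called. Between HD mutant and LCD KO, leaving out LCD KO 2 added Rpl29 (-0.87 ± 0.21) to Rpl23, where 2.35% of genes were called.

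In Dnmt3a KO, DKO and the libraries labelled Tet3 KO, 0 of 77 members were called against WT with edgeR's quasi-likelihood test. Of all genes, 0.755% were called in Dnmt3a KO, 3.79% in DKO (2.27% as higher) and 1.37% in the libraries labelled Tet3 KO (0.822% as lower). At an unadjusted p below 0.05 there were 5, 4 and 6 members, beside 1531, 2093 and 1092 of 11794 genes. DESeq2 also called 0 members in these 3 comparisons. These groups have 2 libraries each, in batch 3, and the median SE of a member was 0.22 on the log2 scale in each comparison, against 0.14 in LCD KO. The medians over members were 0.03, -0.02 and -0.17, against -0.01 over all genes in each. In the libraries labelled Tet3 KO 14 of 77 members had a positive estimate, against 5716 of 11794 genes.

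The largest single estimates in these groups did not pass the test. Rpsa had 21.7 and 12.4 CPM in Dnmt3a KO, below the 42.1 and 33.7 of WT in the same batch, and 42.8 in both DKO libraries. Its change was -1.26 ± 0.43 in Dnmt3a KO (edgeR adjusted p = 0.190). Against Dnmt3a KO, Rpsa in DKO was at 1.36 ± 0.45 (edgeR adjusted p = 0.129). With batch 3 fitted alone, the last comparison called Rpsa as higher in DKO (1.36 ± 0.30, adjusted p = 0.0281) and no other member, with 1.72% of genes called. Rpl23 had 50.1 and 61.5 CPM in DKO against 110 and 87.7 in LCD KO of batch 3, a change of -0.89 ± 0.22 (edgeR adjusted p = 0.0737). It passed the threshold without HD mutant 1 (edgeR adjusted p = 0.0327), where 0.434% of genes were called. In the fits over all batches 0 members were called between DKO and Dnmt3a KO, where 1.99% of genes were called. Between DKO and LCD KO 0 members were called, beside 0.314% of genes (0.0763% as lower). The members' medians were -0.04 and -0.12. At an unadjusted p below 0.05 there were 4 and 2 members, beside 1809 and 910 of 11794 genes. DESeq2 called 0 and 1 member in these comparisons.

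Rpl38, a protein known for its role in translating Hox mRNAs, had 71.2 CPM in DKO 1 and 167 in DKO 2. DKO 1 lay below each WT library of batch 3 and DKO 2 above each. Without DKO 1 the estimate in DKO against WT was 1.02, which rests on DKO 2 alone. The comparisons of these groups share the WT and LCD KO libraries. Adjustment for batch carries much of the contrast: without the batch term the members' medians were -0.43 in Dnmt3a KO, -0.48 in DKO and -0.60 in the libraries labelled Tet3 KO, groups found in batch 3 only, and 0.32 in HD mutant.

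**Figure D4:**
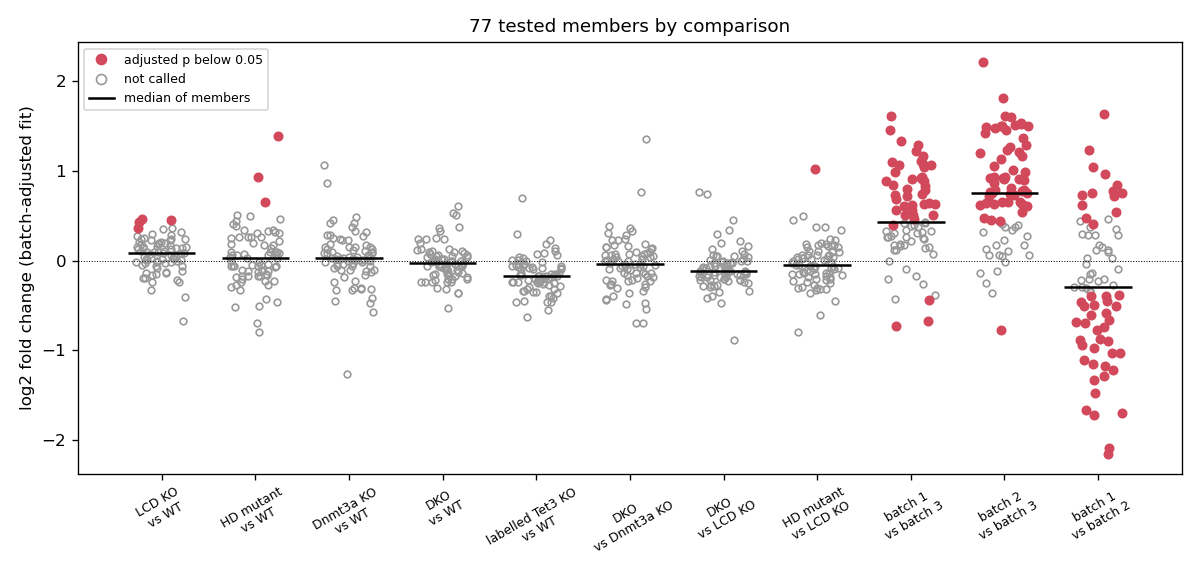
Fold change (log2, fit with group and batch) of the 77 tested members in 8 comparisons of genotypes and 3 of batches, with filled points for members at an adjusted p below 0.05 and a line at the members' median. The medians of the genotype comparisons lie between -0.17 and 0.09, and those of the batch comparisons at 0.43, 0.75 and -0.29.

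More members were called between batches than between genotypes. Adjusted for group, 39 of 77 members were higher and 3 lower in batch 1 than in batch 3, while 31.6% of all genes were called, 16.4% as higher and 15.2% as lower. In batch 2 against batch 3, 55 were higher and 1 lower, where 47.2% of genes were called and 25.2% as higher. Batch 1 against batch 2 gave 14 higher and 34 lower, where 48.6% of genes were called. The members' medians were 0.43, 0.75 and -0.29, against -0.06, -0.00 and -0.08 over all genes. The 3 comparisons share their libraries and are not independent of each other.

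The direction of batch 1 against batch 3 depends on the scaling. TMM factors were 0.733 to 0.759 in batch 1 and 0.927 to 1.2 in all other libraries. With total counts alone, batch 1 against batch 3 gave 13 members higher and 21 lower, beside 484 and 6472 of 11794 genes. The median of all genes was -0.65 and that of the members -0.16. The members thus stood 0.49 above the median gene, as they did by 0.48 with TMM. Batch 1 against batch 2 with total counts gave medians of -0.64 over all genes and -0.85 over members. There 4 members were higher and 53 lower, beside 936 and 5947 genes. Batch 2 against batch 3 kept 55 and 1, beside 2822 and 2721 genes. The 3 batches also differed in depth and in the share of Rn45s, the rRNA precursor, which was 1.14% to 3.11% in batch 2 and at most 0.71% elsewhere. Of 14 oocyte markers 10 were higher and 0 lower in batch 1 than in batch 3 (median 0.97), and 9 were higher and 2 lower in batch 2 (median 0.70), and their sum lay between 51775 and 65046 CPM in batch 1 and between 20683 and 27186 in batch 3. What part these had in the members' levels was not tested.

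Members differed in which batch was high. Rpl5 had 3305, 3710 and 3872 CPM in WT and 3441, 3454 and 3385 in LCD KO of batch 1, while the 6 libraries of batch 2 lay between 929 and 1437 CPM and the 10 of batch 3 between 948 and 1516. Batch 1 lay apart from the other 2, which overlapped. Its change was 1.62 ± 0.14 against batch 3 and 1.63 ± 0.15 against batch 2 (edgeR adjusted p = 4.58e-09 and 2.03e-09). Rpl21 of the large subunit followed the same order, with batch 1 between 312 and 404 CPM, batch 2 between 148 and 197 and batch 3 between 131 and 195 (1.29 ± 0.12 against batch 3).

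Rps12, a protein of the small subunit's beak, was high in batch 2. It had 245 CPM in WT 4, 117 and 149 in LCD KO and 61.6, 139 and 158 in HD mutant 1 to 3, against 32.8 to 47.3 in batch 1 and 27.7 to 46.7 in batch 3. Batch 2 lay above the others without overlap, and its change against batch 3 was 2.21 ± 0.24 (edgeR adjusted p = 8.04e-08). Rpl27a (1.81 ± 0.22), Rpsa (1.61 ± 0.32) and Rplp1 of the stalk (1.6 ± 0.20) came next. Rpl10a, on the L1 stalk where tRNA leaves, had 186 CPM in WT 4, 110 and 138 in LCD KO and 64.9, 144 and 145 in HD mutant of batch 2, against 24.2 to 42.7 in batch 1 and 33.5 to 64.4 in batch 3. Batch 2 lay above batch 1, and its lowest library lay just above the highest of batch 3, with a change of -2.15 ± 0.21 in batch 1 against batch 2. In both genes WT 4 was the highest library and HD mutant 1 the lowest of batch 2.

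Another pattern was a level in batch 3 below both other batches. Rpl32 of the large subunit ran from 486 to 686 CPM in batch 1, while batch 2 covered 460 to 625 and batch 3 only 170 to 266 CPM, without overlap of batch 3 with the others (1.34 ± 0.14 and 1.22 ± 0.16, edgeR adjusted p = 8.80e-08 and 1.14e-06). Of the stalk proteins, Rplp0 (0.99 and 0.61) and Rplp2 (1.07 and 0.77) were higher in batch 1 and in batch 2 than in batch 3, while Rpl12 was called in batch 2 only (-0.09 and 1.06). Of the exit-tunnel proteins, Rpl17 (1.05 and 0.64) and Rpl39 (1.06 and 1.16) passed in both comparisons, and Rpl4 in batch 2 only (0.27 and 0.65). Rps27a passed in both (0.91 and 0.74), and Rps6 in neither (0.34 and -0.13). Of the proteins near the mRNA channel and in the head, Rps2, Rps3 and Rps20 passed in batch 2 (0.92, 1.5 and 1.49) and not in batch 1, and Rps10 in both (0.85 and 1.2).

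The members lower in batch 1 than in batch 3 were Rpl10a (-0.73 ± 0.21), Rpl29 (-0.67 ± 0.25) and Rps26 (-0.44 ± 0.14). Rpl29 kept its call in 16 of 29 alternatives, and within batch 1 it had 6.56 CPM in LCD KO 2 and 20.3 to 32.7 in the others. The member lower in batch 2 than in batch 3 was Rpl23 (-0.77 ± 0.18), the gene that was high in the HD mutant libraries of that batch. Rpl34, with 1 to 34 counts a library, was higher than in batch 3 by 1.46 ± 0.50 in batch 1 and by 1.5 ± 0.51 in batch 2. It kept these calls in 22 and 24 of 29 alternatives. With each library left out in turn, 36 to 44 members were called in batch 1 against batch 3. Batch 2 against batch 3 gave 45 to 59, and batch 1 against batch 2 gave 42 to 51. The share over all genes is not given for these fits, so the counts compare fits only. With all 22 libraries 31.6%, 47.2% and 48.6% of genes were called.

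**Figure D5:**
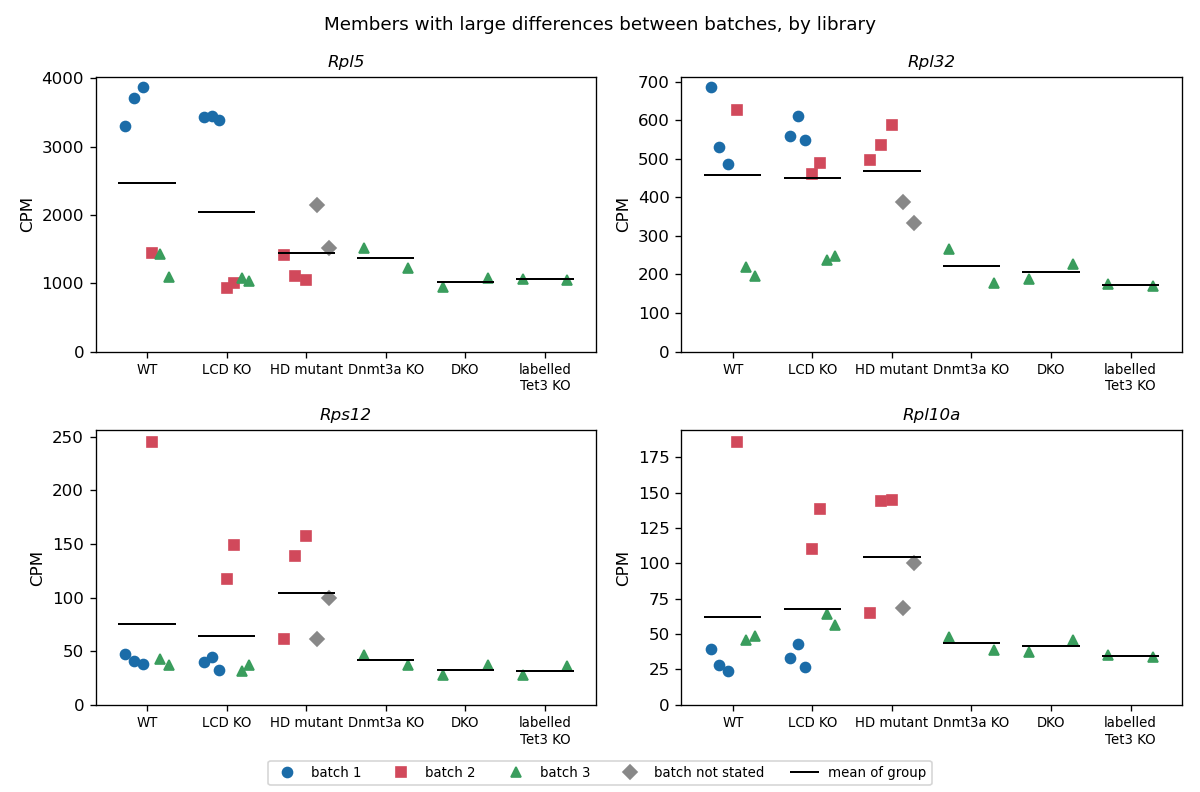
CPM of Rpl5, Rpl32, Rps12 and Rpl10a in each of 24 libraries by group, with colour and shape for the batch and the line at the group mean. Rpl5 is highest in batch 1, Rps12 and Rpl10a in batch 2, and Rpl32 is lowest in batch 3 (170 to 266 CPM).

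Sequence features did not order the members' changes closely. Across 76 members the rank correlation of the change with transcript length, GC content and the share of repeated 100-base stretches lay between -0.13 and 0.11 in the 3 batch comparisons, and between -0.24 and 0.12 in LCD KO against WT (Spearman, across genes of the same libraries). A pyrimidine run of at least 8 bases lay anywhere in the 60-base start window of 32 tested members, so this is no split by a tract at the start itself. These 32 had a median of 0.48 in batch 1 against batch 3 and 0.76 in batch 2 against batch 3. The 25 other members with a window had 0.26 and 0.90. In LCD KO against WT the medians were 0.08 and 0.14.

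The rest of the translation machinery was read beside the members. In LCD KO against WT, where 18.3% of genes were called, 13 of 91 factors of ribosome biogenesis were higher and 3 lower. Those with the smallest p were Rrp9, a U3 snoRNP protein (1.23 ± 0.17), Pno1, which helps mature the 18S rRNA (0.79 ± 0.13), Nop14 of the small-subunit processome (0.78 ± 0.13) and Ebna1bp2, a factor of large-subunit assembly (0.57 ± 0.12). Of 42 initiation factors 1 was higher, Eif1 (0.46 ± 0.11), and 5 were lower, among them Eif4g3 (-0.57 ± 0.17), Eif3b (-0.57 ± 0.17) and Eif4b (-0.46 ± 0.15). Of 13 elongation and termination factors 2 were higher and 3 lower, with Eif5a2 at 1.55 ± 0.34, Eef1g at 0.37 ± 0.13, the release factors Gspt2 at -0.82 ± 0.14 and Etf1 at -0.42 ± 0.12. Of 19 genes that control TOP mRNAs or mTOR, Akt1s1, an inhibitory subunit of mTORC1, was higher (0.55 ± 0.12), and Rraga (-0.57 ± 0.13), Deptor (-0.39 ± 0.11) and Larp4 (-0.52 ± 0.17) were lower.

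The mitochondrial ribosome has its own proteins, and 6 of 78 were higher and 3 lower in LCD KO, with Mrpl9 (0.80 ± 0.12) and Mrps34 (1.46 ± 0.33) among the higher. In batch 1 alone 30 of 77 mitochondrial ribosomal protein genes were higher and 1 lower, beside 27 of 76 cytosolic ones, against 15.8% of genes called as higher. In HD mutant against WT, 5 of 91 biogenesis factors were higher and 0 lower, led by Pno1 (1.04 ± 0.20), and 3 of 78 mitochondrial ribosomal proteins were higher, beside 4.08% of all genes. In batch 1 against batch 3, where 39 cytosolic members were higher and 3 lower, 23 of 78 mitochondrial ribosomal proteins were higher and 5 lower, and 20 of 91 biogenesis factors were higher and 6 lower, beside 16.4% and 15.2% of all genes. In batch 2 against batch 3, where 55 cytosolic members were higher and 1 lower, 10 of 78 mitochondrial ribosomal proteins were higher and 14 lower, and 10 of 91 biogenesis factors were higher and 29 lower, beside 25.2% and 22% of all genes. Fau and Rack1, ribosomal proteins with other names, were called in 0 of the genotype comparisons against WT. Fau was higher in batch 1 than in batch 3 (1.15 ± 0.18).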

How the data were processed

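RNA-seq of 26 deposited libraries of GV oocytes was analysed. The authors deposited raw read counts per gene symbol, without normalization. Per the submitters' processing notes, Trim Galore 0.5.0, HISAT2 2.1.0, featureCounts 1.6.4 and mm9 were used; the annotation, strand setting and handling of multiple alignments are not given in the sources used here. The 92 ERCC features were left out, and identical columns counted once. No other pair of libraries of a group differed by less than 2.76 chi-square per degree of freedom. Total counts ranged from 1838824 to 7833087, and with no molecular identifiers counting errors are lower limits.

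Tests used edgeR 4.0.16 in R 4.3.3 (TMM, filterByExpr, robust quasi-likelihood F test, group and batch, 22 libraries, 14 residual degrees of freedom) over 11794 genes, with Benjamini-Hochberg adjustment and calls below 0.05. Where the labels do not tie pools to separate mice, p-values measure the spread between pools. Lengths, shared 100-base stretches and overlaps came from GENCODE transcripts on GRCm38, with no coordinates carried to mm9, and start windows from RefSeq (GRCm38.p6). The test was tried on simulated counts. Alternatives were no batch term, other scalings, no filter, DESeq2 1.42.0, a replicate block, single batches and leaving out each library.

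Members named were those called (up to 10 per direction and comparison), the 5 highest and 5 lowest per coding length, paralogue pairs and a list of roles, and up to 4 genes per other list by p. Members and lists were chosen with earlier results of these data known.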

Additional observations from a re-analysis of the deposited data

Results flagged for a closer look

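Of 154 sets of 4 to 10 libraries examined, 18 held a library far from the others of its group. Chance alone gives about 1 in 20 for independent sets of like libraries. The sets here share libraries and mix batches, and many of their members were named because they were called between batches. The 1 in 20 is therefore no measure for the 18. In 15 of the 18 sets it was WT 4, the only WT library of batch 2, so that the batch and the library cannot be told apart. Its summed share of counts was 2.46%, with the other WT libraries at 1.31% to 1.70%. In CPM, WT 4 had 186 of Rpl10a (others 24.2 to 48.5), 90.5 of Rpl12 (26.7 to 36.8), 61.5 of Rpl22 (12.2 to 25.6), 138 of Rpl27a (23.9 to 47.3) and 162 of Rpl28 (49.0 to 71.2). It had 322 of Rpl36 (75.4 to 166), 147 of Rpl8 (26.4 to 43.2), 666 of Rplp1 (145 to 330.0), 245 of Rps12 (36.7 to 47.3) and 379 of Rps15a (88.4 to 176). It had 236 of Rps20 (62.9 to 123), 84.6 of Rps23 (34.5 to 47.8), 134 of Rps3 (31.3 to 54.6) and 160.5 of Rpsa (33.7 to 57.4). The other 3 rest on few counts: Rps27 at 0.943 CPM in WT 5 (3 counts), and Rpl26 and Rps27 at 0.124 CPM in HD mutant 3 (1 count each).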

How the results depend on the processing

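For the named members 1421 of 1528 alternative values kept direction and side of the threshold, 105 lost the call and 2 reversed. The causes were not tested. Most of these values belong to the batch comparisons. In LCD KO against WT the call was kept in 25 (Rps23), 29 (Rpl41), 22 (Rps18) and 16 (Rpl23) of 32 alternatives. In HD mutant against WT it was kept in 27 (Rpl23), 26 (Rps18) and 20 (Rpl41) of 31. Without a batch term (22 libraries) 0 members were called in LCD KO, 1 in HD mutant against WT and 0 against LCD KO; medians were 0.32 (HD mutant), -0.43 (Dnmt3a KO), -0.48 (DKO), -0.60 (labelled Tet3 KO), -0.61 (DKO against LCD KO) and 0.27 (HD mutant against LCD KO). With 24 libraries HD mutant gave 1 (median 0.38) and 0 against LCD KO (0.22). Total counts gave medians of -0.16 (batch 1 against 3) and -0.85 (1 against 2). Without the filter HD mutant gave 5, Dnmt3a KO 1, DKO 1 against each of Dnmt3a KO and LCD KO, and HD mutant 2 against LCD KO. DESeq2 gave 1 for DKO against LCD KO. Batch 1 alone gave 27 in LCD KO. Batch 2 alone gave 0 in LCD KO (median -0.27, Rpl41 reversed at -0.045), 0 in HD mutant (-0.20) and 0 against LCD KO. Batch 3 alone gave 0 in LCD KO and 1 for DKO against Dnmt3a KO. The labelled Tet3 KO share was 1.12% of effective size.

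Same-numbered libraries deviated together (r above 0.1) in 4 of 10 pairs, with a median of -0.001, and differently numbered ones in 15 of 45. Where a group has 2 libraries in a batch their deviations mirror each other, which forces r into opposite values. These values therefore cannot decide whether the numbers pair samples, and the labels tie no number to a shared animal. With the replicate block HD mutant gave 0 (0.26) and 0 against LCD KO (0.15), and the batches 14 (1 against 3), 19 (2 against 3) and 14 (1 against 2), with Rps28 reversed at -0.68.

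Leaving out each library gave 1 to 8 members in LCD KO, 1 to 5 in HD mutant, and 1 to 2 in HD mutant against LCD KO. Where each group of 2 kept its libraries, 0 were called in Dnmt3a KO, labelled Tet3 KO and DKO against WT. DKO then gave 0 against Dnmt3a KO and 0 to 1 against LCD KO. Between batches leaving out each library gave 36 to 44 (1 against 3), 45 to 59 (2 against 3) and 42 to 51 (1 against 2). Medians were 0.05 to 0.21 (LCD KO), -0.050 to 0.22 (HD mutant), -0.24 to 0.29 (Dnmt3a KO), -0.22 to 0.13 (DKO), -0.22 to -0.13 (labelled Tet3 KO), -0.28 to 0.23 (DKO against Dnmt3a KO), -0.28 to 0.058 (against LCD KO), -0.14 to 0.09 (HD mutant against LCD KO), 0.41 to 0.49, 0.59 to 0.86 and -0.38 to -0.094 (the batches in that order), and -0.05 to 0.19 for the difference of the LCD KO effect between batches 1 and 3, with 0 called. Where a group of 2 lost a library, the lone one was taken to vary like the other groups. Depth limits Rpl26, Rpl30, Rpl34 and Rps27. Counts of called members under this heading stand without the share over all genes, so they compare fits only.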

Other observations

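Rpl37rt, whose symbol marks it as a retrotransposed copy of Rpl37 and which the symbol rule left out, differed between genotypes. In batch 3 it stood at 261 and 220.1 CPM in WT, 341 and 317 in LCD KO, 146 and 170.1 in DKO and 77.6 and 65.6 in Dnmt3a KO. The libraries labelled Tet3 KO had 3.23 and 5.62 CPM (14 and 23 counts), below every other library. Against WT the change on the log2 scale with its SE was -5.95 ± 0.31 in these libraries (edgeR adjusted p = 9.12e-14), -1.94 ± 0.23 in Dnmt3a KO (adjusted p = 1.63e-05) and -0.80 ± 0.22 in DKO (adjusted p = 0.0383). DKO was above Dnmt3a KO by 1.15 ± 0.24 (adjusted p = 0.0109), and LCD KO was at 0.09 ± 0.13. Rpl37 itself was called in none of these comparisons, with 0.06 ± 0.20 in Dnmt3a KO, -0.00 ± 0.20 in DKO and -0.31 ± 0.21 (adjusted p = 0.767) for the label Tet3 KO. Rpl37rt was chosen for description after its values were seen.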
